A study of Mus musculus with 8 samples.

Results

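The MHC class I genes are described here in the ventricles of mouse embryos at E10.5. Of 55291 gene symbols in the count table, 10 rows were read by name: H2-K1, H2-D1, H2-Q1, H2-Q2, H2-Q4, H2-Q6, H2-Q7, H2-Q10, H2-T23 and B2m. The set was selected on the counts of H2-Q2, which were lower in the cKO libraries, so its values are a description and carry no test, and the other 9 genes were taken as its relatives by name. All 10 rows reached the minimum of 8 counts over the 8 libraries and are among the 26820 genes tested.

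The study profiled poly(A) RNA from 4 cKO and 4 control samples, with 47559845 to 56660938 counts per library. The cKO embryos were Pkn2 fl/fl with XMLC2-Cre, which acts in cardiomyocytes, and the controls were Cre-negative Pkn2 fl/fl littermates. Both groups are therefore homozygous for the floxed allele, both are labelled C57BL/6 and kept on a C57BL/6N background, and the presence of Cre and the loss of Pkn2 cannot be told apart. Whole ventricular tissue was used, so cells outside the Cre lineage contribute to every library, and a smaller number of cells of a type and less RNA per cell cannot be told apart. Pkn2, the targeted kinase gene, was at 77.6 to 84.3 CPM (counts scaled to library size) in the cKO libraries and at 133 to 153 CPM in the controls, a log2 fold change of -0.83 (SE 0.060, adjusted p = 7.67e-06 by edgeR's quasi-likelihood test). None of the 10 cardiomyocyte markers was called, and their median on the same scale was -0.05. Nkx2-5 was the only one of them whose cKO libraries all lay below the controls (-0.32, adjusted p = 0.109 by edgeR). All 10 endothelial markers were above 0 on the same scale with a median of 0.39, and 5 of them rose (Emcn, Nfatc1, Cdh5, Pecam1 and Tie1). Of the 10 macrophage markers 9 were above 0, the median was 1.78, and C1qb and C1qc rose. Among all genes tested, 0.858% were called in either direction at an adjusted p of at most 0.05.

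MHC class I molecules are cell surface complexes of a polymorphic heavy chain and the light chain beta-2-microglobulin, and they display peptides to T cells and serve as ligands for receptors of NK cells. H2-K1 and H2-D1 encode the classical heavy chains of the mouse, which most nucleated cells of the adult carry, while the H2-Q and H2-T genes encode nonclassical relatives with narrower roles. The heavy chain genes arose by duplication and lie in clusters of similar sequence on one chromosome, and the H2-Q cluster differs in gene content between mouse haplotypes. Transcription is known to be raised by interferons through IRF sites and by NF-kappaB through a kappaB site upstream of the start, and class I levels are known to be low in midgestation embryos.

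The similarity of the rows bears on every count below, since a read that fits several genes equally well cannot be placed. Transcripts of the reference annotation (GENCODE vM39, retained introns left out) were cut into all windows of 100 bases, the shorter of the read lengths given for the study, and each was looked up among the transcripts of all other genes. H2-Q2 shared 106 of its 2857 windows with another gene (3.71%), and the partner was H2-Q1 in every case. At 150 bases, the other read length given, 52 of 2907 windows were shared (1.79%), again with H2-Q1. The row of H2-Q1 was less distinct, with 12.4% of its windows of 100 bases shared, among them 5.22% with H2-Q2 and 4.19% with H2-D1. H2-Q4 shared 8.8% of its windows, mostly with H2-Q10, which accounted for 5.79%. H2-Q6, H2-Q7 and H2-Q10 shared 9.05%, 10.8% and 9.8%, while H2-K1 and H2-D1 shared 2.58% and 2.7%, H2-T23 shared 3.44%, and B2m shared 0. The second read of a pair and the way the authors placed reads with several matches could change these shares, and the latter is not given in the sources used here.

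Over the aligned bases, the coding sequence of H2-Q2 was closest to H2-Q7 and H2-Q6, at 88.2% and 87.7% identity. It was 86.3% identical to that of H2-Q1 and 86% identical to those of H2-D1 and H2-Q4. The values for H2-Q10, H2-K1 and H2-T23 were 85.8%, 85.5% and 80.2%, against 95.4% between H2-Q6 and H2-Q7. Other pairs without H2-Q2 included H2-K1 and H2-D1 at 90.1%, H2-K1 and H2-Q1 at 86.7%, and H2-Q10 and H2-T23 at 80%. The longest unbroken run that the coding sequence of H2-Q2 had in common with H2-Q1 was 86 bases, starting at coding base 646 of both, and the longest with H2-Q4 was 72 bases. The runs with H2-K1, H2-D1 and H2-T23 were longer than that with H2-Q4, at 74 bases each. They started at coding base 658 of H2-Q2 and lie within the run shared with H2-Q1, so that stretch is not particular to H2-Q1. Only the runs with H2-Q1 and H2-Q4 are shown. All of these runs are shorter than 100 bases. The windows of 100 and 150 bases that H2-Q2 shares with H2-Q1 therefore do not lie wholly within this coding alignment.
H2-Q2 and H2-Q1: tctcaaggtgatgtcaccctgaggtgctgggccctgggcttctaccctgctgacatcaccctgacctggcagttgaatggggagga
H2-Q2 and H2-Q4: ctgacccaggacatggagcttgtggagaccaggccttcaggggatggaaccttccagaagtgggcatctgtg

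The promoters of the class I genes were compared as well. The 250 bases before the RefSeq start (GRCm38.p6) are shown for the 2 genes of the H2-Q cluster with the highest counts, for H2-D1, which precedes them on the chromosome, and for H2-Q6, which follows them. Capitals mark exact matches on either strand to a kappaB motif (GGGATTCCC) and to an IRF motif (TTTCNCTTC), which did not overlap. Entries were found for 9 of the 10 genes, with none for H2-Q1.
H2-D1 (chr17:35262844-35263093, plus strand): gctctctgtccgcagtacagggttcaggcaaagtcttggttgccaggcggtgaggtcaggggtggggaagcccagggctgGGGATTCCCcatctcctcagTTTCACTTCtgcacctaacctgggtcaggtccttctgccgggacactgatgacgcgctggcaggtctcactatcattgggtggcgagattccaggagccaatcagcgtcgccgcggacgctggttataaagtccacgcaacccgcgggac
H2-Q2 (chr17:35342057-35342306, plus strand): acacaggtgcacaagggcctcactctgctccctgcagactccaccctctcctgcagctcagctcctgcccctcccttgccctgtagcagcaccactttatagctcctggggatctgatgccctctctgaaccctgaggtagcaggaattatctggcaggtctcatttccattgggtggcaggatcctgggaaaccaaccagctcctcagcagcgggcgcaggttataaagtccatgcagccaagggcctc
H2-Q4 (chr17:35379367-35379616, plus strand): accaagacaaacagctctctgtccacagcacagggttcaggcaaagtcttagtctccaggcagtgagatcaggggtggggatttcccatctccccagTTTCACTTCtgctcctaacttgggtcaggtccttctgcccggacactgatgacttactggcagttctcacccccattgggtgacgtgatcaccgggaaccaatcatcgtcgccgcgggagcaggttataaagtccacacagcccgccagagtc
H2-Q6 (chr17:35424600-35424849, plus strand): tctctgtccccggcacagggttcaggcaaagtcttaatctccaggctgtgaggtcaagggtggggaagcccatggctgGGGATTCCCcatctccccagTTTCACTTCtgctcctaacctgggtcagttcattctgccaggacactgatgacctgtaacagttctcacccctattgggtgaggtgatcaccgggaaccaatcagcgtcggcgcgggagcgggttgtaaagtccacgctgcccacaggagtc
The kappaB letters stood in the windows of H2-K1, H2-D1, H2-Q6 and H2-Q7, against 0.301% of 32851 promoters of the same length. The IRF letters stood in those of H2-K1, H2-D1, H2-Q4, H2-Q6, H2-Q7 and H2-Q10, against 2% of all promoters. Neither was in the windows of H2-Q2, H2-T23 or B2m. Only these exact letters were searched, so the lack of a match does not show that a site is absent. The H2-Q4 window, for example, holds gggatttccc, which differs from the kappaB letters by an added t. In alignment, the H2-Q2 window was 62.7% identical to that of H2-D1 and 67.4% identical to that of H2-Q4, whereas the H2-D1 and H2-Q4 windows were 86.3% identical to each other. This distance was not particular to H2-Q2, since the H2-T23 window was 55.4% to 61.5% identical to those of the other heavy chain genes with an entry. The window of B2m, which is not a heavy chain gene, was 54.3% to 62.6% identical to the same windows. The H2-T23 values, and the 62.7% between H2-Q2 and H2-D1, are therefore near those of B2m. A match of letters is a description of these windows and not of binding.

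H2-Q2 (ENSMUSG00000091705, chr17:35342242-35345794 on the plus strand, positions as in the deposited TPM table, which are those of GRCm38) gave the difference that led to the set. Its counts were 342, 351, 394 and 609 in control replicates 1 to 4 and 81, 120, 135 and 148 in cKO replicates 1 to 4. On the CPM scale these were 6.32, 7.28, 6.96 and 12.2 in the controls and 1.61, 2.49, 2.80 and 2.64 in the cKO libraries. Every cKO library lay below every control, and control replicate 4 stood above the other 3 controls. The means were 8.19 CPM ± 2.70 (SD, n = 4) in the controls and 2.39 CPM ± 0.534 (SD, n = 4) in the cKO libraries, or 29.1% of the control mean. The fitted log2 fold change was -1.78 (SE 0.214), and it was -1.52 without control replicate 4.

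Of the 9 other genes, only H2-Q1 passed the test at an adjusted p of at most 0.05, lower in the cKO libraries, against 0.858% of all genes tested (230 of 26820) in either direction and 0.343% in the lower one. Groups did not overlap for 3 of the 9: H2-Q1 and H2-Q4 were lower and H2-T23 higher in every cKO library, against 3.77% of all genes tested in the lower direction, 3.14% in the higher and 6.91% in either. The log2 fold changes of the 9 were above 0 in 6 and below 0 in 3, with a median of 0.28, and that of all genes tested was -0.00085. The count of called genes rests on single libraries, since the call of H2-Q1 was lost without cKO replicate 1 (adjusted p = 0.0693) or without control replicate 1, 3 or 4 (adjusted p = 0.0679, 0.0842 and 0.125).

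**Figure D1:**
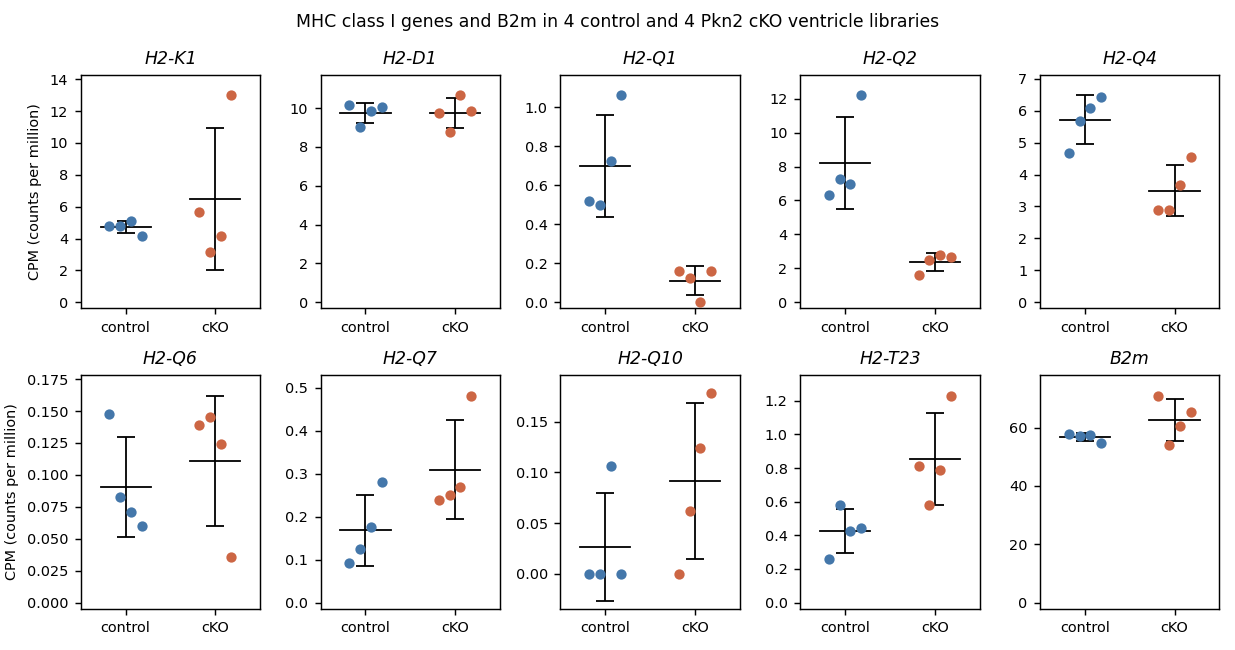
Level of each of the 10 genes in CPM (vertical axis, linear, its own range in each panel) in the 4 control (blue) and 4 cKO (orange) libraries; each point is a library, horizontal lines are means and bars are SD. The cKO points of H2-Q1, H2-Q2 and H2-Q4 lie below all control points, those of H2-D1 cover the same range as the controls, and cKO replicate 4 stands high for H2-K1 at 13.0 CPM.

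H2-Q1 (ENSMUSG00000079507, chr17:35320547-35325099, plus strand) is the first gene of the H2-Q cluster after H2-D1. It had 28, 24, 41 and 53 counts in control replicates 1 to 4 and 8, 6, 0 and 9 counts in cKO replicates 1 to 4. The groups did not overlap, and control replicate 4 was again the highest. Its mean fell from 0.700 CPM ± 0.262 (SD, n = 4) to 0.111 CPM ± 0.0758 (SD, n = 4), a log2 fold change of -2.61 (SE 0.522, adjusted p = 0.0264 by edgeR). It held 169 counts in all. The ratio of H2-Q1 to H2-Q2 counts was 0.0684 to 0.104 in the controls and 0 to 0.0988 in the cKO libraries, and these ranges overlapped.

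H2-Q4 (ENSMUSG00000035929, chr17:35379617-35384674, plus strand) was, with H2-Q2, the H2-Q gene with the most counts. It had 253, 274, 345 and 321 counts in the controls and 145, 139, 177 and 255 in the cKO libraries. In CPM the controls were at 4.68, 5.68, 6.09 and 6.43 and the cKO libraries at 2.88, 2.89, 3.67 and 4.55. The groups did not overlap, and cKO replicate 4 was the cKO library closest to the controls. The cKO mean was 61.1% of the control mean, with a log2 fold change of -0.71 (SE 0.167) that did not pass the test (adjusted p = 0.0592 by edgeR). It passed without cKO replicate 4 (-0.85, adjusted p = 0.0190) and with DESeq2 (adjusted p = 0.00299). A predicted gene, Gm11131, overlaps the start of H2-Q4 in the deposited positions, and whether reads were counted by strand is not given in the sources used here.

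Ratios to H2-Q2 hold the counts on which the set was selected and are given as a description only. H2-Q2 had 1.14 to 1.90 counts for each H2-Q4 count in the controls and 0.559 to 0.863 in the cKO libraries. Relative to H2-D1, H2-Q2 stood at 0.623 to 1.21 in the controls and at 0.165 to 0.285 in the cKO libraries, and H2-Q4 at 0.461 to 0.639 and 0.296 to 0.462. The ratios of H2-Q4 to H2-D1, which do not use H2-Q2, met at one point, where cKO replicate 4 was just above control replicate 1.

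Since reads of similar genes can be exchanged between rows, the 8 H2-Q rows of the count table were also summed within each library. The sum was 12.3, 14.0, 14.8 and 21.1 CPM in control replicates 1 to 4 and 5.20, 6.38, 7.09 and 8.43 CPM in cKO replicates 1 to 4. All cKO sums lay below all control sums, and the cKO mean was 43.5% of the control mean, a description only since the sums hold H2-Q2. With H2-Q2 taken out, the sum was 6.02 to 8.93 CPM in the controls and 3.59 to 5.78 CPM in the cKO libraries, or 59.4% of the control mean, and the groups still did not overlap. H2-Q2 made up 47.0% to 57.7% of H2-Q counts in the controls and 30.9% to 39.5% in the cKO libraries. The 4 rows H2-Q5, H2-Q6, H2-Q7 and H2-Q10 held 12 to 23 counts together in each control and 21 to 43 in each cKO library.

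**Figure D2:**
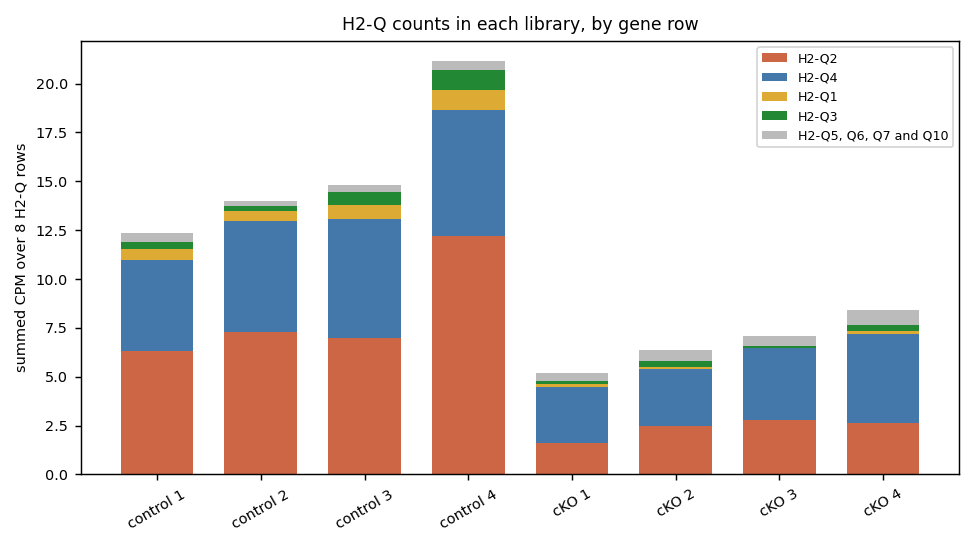
Stacked bars of the CPM of the 8 H2-Q rows (vertical axis) in each of the 8 libraries (horizontal axis), coloured by row. The bars of the cKO libraries reach 5.20 to 8.43 CPM and those of the controls 12.3 to 21.1 CPM, with H2-Q2 and H2-Q4 making up most of each bar.

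H2-Q6 and H2-Q7, which are near-duplicates, were hardly detected. H2-Q6 (ENSMUSG00000073409, chr17:35424850-35430055) had 3 to 8 counts per control and 2 to 7 per cKO library, with a log2 fold change of 0.28 (SE 0.695, adjusted p = 0.930 by edgeR). H2-Q7 (ENSMUSG00000060550, chr17:35439155-35443773) had 5, 6, 10 and 14 counts in the controls and 12, 12, 13 and 27 in the cKO libraries, a log2 fold change of 0.88 (SE 0.468, adjusted p = 0.467). For both genes the groups overlapped. H2-Q10 (ENSMUSG00000067235, chr17:35470089-35474563), whose product is secreted and comes mainly from the liver, had 25 counts in all. It was at 0 in 3 controls and in cKO replicate 1, at 6 in control replicate 3, and at 3, 6 and 10 in cKO replicates 2 to 4. A count of 0 allows up to 3 counts, or 0.0530 to 0.0623 CPM at these depths by counting error alone, so no difference was detectable for H2-Q10 (adjusted p = 0.669). The deposited TPM listed it at 0 also in cKO replicate 3, which had 6 counts.

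Neither of the classical genes passed the test. H2-D1 (ENSMUSG00000073411, chr17:35262730-35267499, plus strand) had 549, 435, 556 and 502 counts in the controls and 490, 421, 514 and 552 in the cKO libraries. Its means were 9.76 CPM ± 0.511 (SD, n = 4) and 9.75 CPM ± 0.783 (SD, n = 4). The log2 fold change of -0.0025 had an SE of 0.0968 and took either sign under other settings (adjusted p = 0.998 by edgeR). It was the row with the smallest difference among the 10.

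H2-K1 (ENSMUSG00000061232, chr17:33996017-34000347, minus strand) was at 4.79, 4.81, 5.12 and 4.19 CPM in the controls and at 5.67, 3.14, 4.19 and 13.0 CPM in the cKO libraries. The controls were close together, cKO replicate 4 was far above every other library, and the remaining cKO libraries lay on both sides of the controls. The log2 fold change was 0.46 (SE 0.308, adjusted p = 0.601 by edgeR) over all libraries and -0.12 without cKO replicate 4. In the same library H2-Ab1, the beta chain of the class II molecule I-A, was at 21.0 CPM, against 3.90 to 5.24 CPM in the other cKO libraries and 2.67 to 5.25 CPM in the controls. The summed macrophage markers were at 29.0 CPM in cKO replicate 4 but at 43.2 CPM in cKO replicate 1, where H2-K1 and H2-Ab1 were at 5.67 and 5.24 CPM. The part of any cell type in the H2-K1 level was not tested.

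H2-T23 (ENSMUSG00000067212, chr17:36029976-36032855, minus strand) encodes Qa-1, the ligand of the CD94/NKG2A receptor of NK cells. It had 14, 28, 24 and 22 counts in the controls and 41, 28, 38 and 69 in the cKO libraries. Each cKO library was above each control in CPM, but cKO replicate 2 and control replicate 2 were nearly level at 0.582 and 0.581 CPM, and in TPM, which are scaled to transcript length as well, the groups overlapped. The log2 fold change was 1.01 (SE 0.318) and did not pass the test (adjusted p = 0.159 by edgeR, and 0.113 to 0.376 when single libraries were left out).

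B2m (ENSMUSG00000060802, chr2:122147686-122153083, plus strand), the light chain shared by all of these heavy chains, was by far the most abundant. It was at 57.9, 57.2, 57.4 and 54.8 CPM in the controls and at 71.0, 54.0, 60.7 and 65.3 CPM in the cKO libraries. Of the 4 cKO libraries 3 were above all controls and cKO replicate 2 was below them. The log2 fold change was 0.14 (SE 0.0721, adjusted p = 0.429 by edgeR). Within the cKO group, the summed endothelial markers were at 2024, 1691, 1675 and 2121 CPM in replicates 1 to 4, against 1324 to 1550 CPM in the controls. The 2 libraries with the most B2m, cKO replicates 1 and 4, also had the most endothelial marker RNA. They had the most macrophage marker RNA as well, at 43.2 and 29.0 CPM. In cKO replicate 2, however, the endothelial markers were above every control while B2m was below every control. The part of either cell type in the B2m level was not tested.

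Levels can be set against each other only per length, for which the deposited TPM were used. In the controls the median was 114 TPM for B2m, 9.67 TPM for H2-Q2, 8.59 TPM for H2-D1, 7.05 TPM for H2-Q4 and 5.38 TPM for H2-K1. The ranges of H2-Q2 (8.17 to 15.4 TPM) and H2-D1 (8.45 to 8.81 TPM) overlapped, so their order is not fixed, whereas those of the neighbours H2-D1, H2-Q4 and H2-K1 did not overlap. The other members had medians below 1 TPM, from 0.719 for H2-Q1 to 0 for H2-Q10. In the cKO libraries H2-Q2 was at 2.12 to 3.81 TPM and H2-Q4 at 3.58 to 5.86 TPM, both below H2-D1 at 7.89 to 9.39 TPM.

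The position of the genes was then set beside their difference as a description. A haplotype carried by 1 group could touch several neighbouring genes or only single ones. Along the chromosome, H2-D1 ends 53.0 kb before H2-Q1. From H2-Q1 to H2-Q5, a stretch of 77.0 kb, 7 genes were tested and the log2 fold change was below 0 in all 7, from -2.61 to -0.47. Besides H2-Q1, H2-Q2 and H2-Q4 these were Gm8741 (-0.47, SE 0.516), H2-Q3 (-1.43, SE 0.452, adjusted p = 0.161), Gm11131 (-0.96, SE 0.589) and H2-Q5 (-0.80, SE 0.926). The limits of this stretch were set after the values were seen, and H2-Q2 lies within it, so its count is a description only. H2-Q3 had 22, 14, 37 and 49 counts in the controls and 7, 15, 5 and 17 in the cKO libraries, which overlapped, and H2-Q5 had at most 10 counts in any library. These rows shared 20.4% and 15.3% of their windows of 100 bases with other genes. Gm8741 had 5 to 19 counts in the controls and 6 to 12 in the cKO libraries. Its deposited TPM were 19.2 to 21.6 and 18.1 to 20.2, which overlapped and are high for so few counts. H2-Q6 starts 27.3 kb after H2-Q5, and from there on H2-Q6, H2-Q7 and H2-Q10 were above 0.

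With H2-Q2 itself left out, 39 genes were tested within 250 kb of it, and H2-Q1 was the 1 that passed. Among the other 33 genes outside the stretch from H2-Q1 to H2-Q5, 0 passed by edgeR, the groups overlapped for all 33, and 13 were below 0. For the 12 of these 33 with a mean of at least 1 CPM, the log2 fold change ranged from -0.09 to 0.030. The nearest gene with a mean of at least 1 CPM before H2-Q2 was H2-D1, one of these 12, and the nearest after it was H2-Q4, which lies within the stretch. In the wider interval from H2-K1 to H2-T23, which spans 2037 kb, 138 genes other than H2-Q2 were tested and 2 passed (1.45%), H2-Q1 and Ddr1. Ddr1, which encodes a collagen receptor and lies 339 kb after H2-Q2, fell by 0.41 on the log2 scale (SE 0.0801, adjusted p = 0.0249). Over the whole of chromosome 17, 11 of 1259 genes other than H2-Q2 passed (0.874%), near the 0.858% of all genes. Sequence variants were not analysed here, so a difference in haplotype between the groups was not tested.

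**Figure D3:**
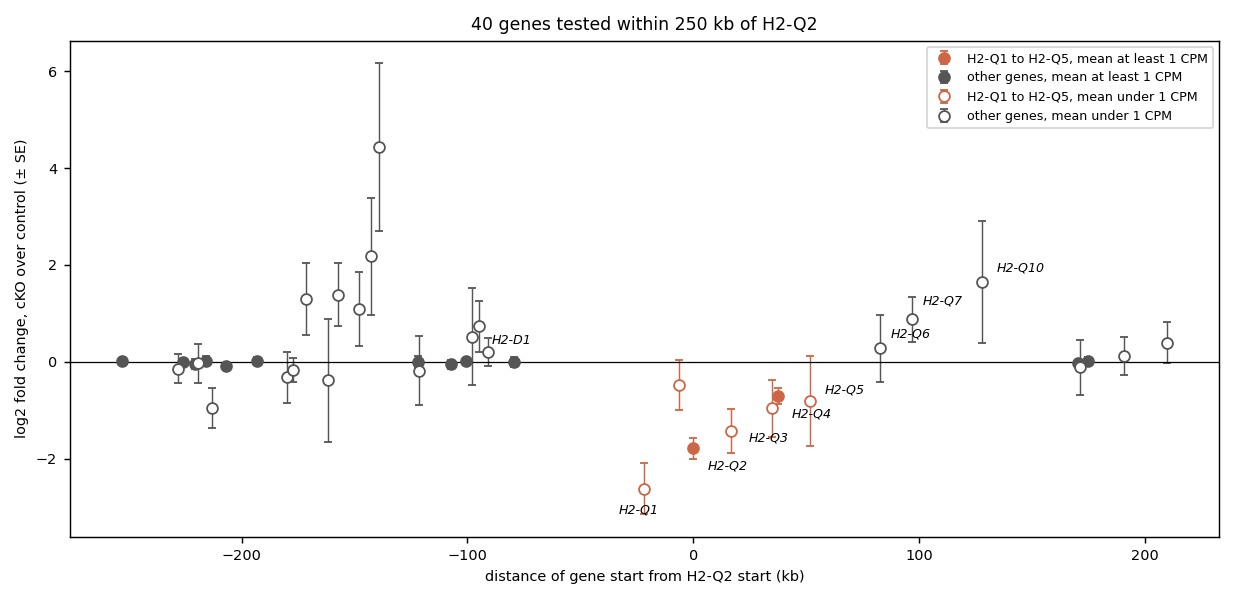
Log2 fold change of cKO over control with its SE (vertical axis) against the distance of each gene's start from that of H2-Q2 in kb (horizontal axis) for the 40 genes tested within 250 kb; filled points have a mean of at least 1 CPM and orange points lie from H2-Q1 to H2-Q5. The 7 orange points are all below 0, and the filled grey points lie between -0.09 and 0.030.

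The remaining genes of class I antigen presentation were read from lists drawn up by function, and among the 91 of them that were tested 0 passed by edgeR, with a median log2 fold change of 0.05. At an unadjusted p under 0.05 there were 13 of the 91 (14.3%), against 12.8% of all genes tested. DESeq2 called 3 of the 62 to which it gave an adjusted p (4.84%), against 5.46% of all genes, so both shares were near the background. Of 9 other class I genes of the MHC tested, 4 were above 0 and the median was -0.17. The 2 of them named by the rule, H2-T22 and H2-T24, were at 4.91 to 6.58 and 2.46 to 4.87 CPM in the controls and at 5.22 to 7.93 and 1.92 to 5.07 CPM in the cKO libraries, which overlapped. Of 11 class I-like genes outside the MHC tested, 6 were above 0. Cd1d1, which presents lipids to NKT cells, was at 12.2 to 14.6 CPM in the controls and 8.05 to 11.4 CPM in the cKO libraries without overlap, with a log2 fold change of -0.50 (SE 0.113, adjusted p = 0.0516). Ulbp1, a ligand of the activating receptor NKG2D, was at 31.3 to 36.5 CPM in the controls and at 37.4 to 49.2 CPM in the cKO libraries (log2 fold change 0.33, SE 0.0817, adjusted p = 0.0756). Both passed with DESeq2 (adjusted p = 0.00345 and 0.0101).

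The machinery that cuts, transports and loads peptides differed little. Its 16 genes had a median log2 fold change of -0.06, and 5 were above 0. Canx, the chaperone of free heavy chains, was at 707 to 770 CPM in the controls and 623 to 699 CPM in the cKO libraries, which did not overlap (log2 fold change -0.16, SE 0.0567, adjusted p = 0.213). Psmb10, a subunit of the immunoproteasome, was at 21.3 to 24.9 CPM and 16.3 to 21.9 CPM (adjusted p = 0.247). The transporter genes Tap1 and Tap2 had means of 0.676 and 0.290 CPM over all libraries, with log2 fold changes of -0.36 (SE 0.287) and 0.08 (SE 0.550); these, like the next genes named without the rule, were picked for their role after their values were seen.

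Regulators of class I transcription had a median log2 fold change of 0.05 over 17 genes, of which 12 were above 0. Nlrc5, the transactivator of class I genes, was at a mean of 0.0390 CPM. Irf8, a factor of myeloid cells, was at 1.87 CPM or less in the controls and 1.74 to 4.21 CPM in the cKO libraries (log2 fold change 1.07, SE 0.278, adjusted p = 0.0861), and it was highest in cKO replicates 1 and 4, as were the summed macrophage markers. Irf2 was at 0.20 (SE 0.105, adjusted p = 0.461). The 20 genes of the interferon response had a median of 0.16 and 11 of them were above 0, with Ifitm3 at 0.39 (SE 0.150, adjusted p = 0.276) and Bst2 at 0.34 (SE 0.168, adjusted p = 0.422). The list of interferons, their receptors and the receptor kinases Jak1, Jak2 and Tyk2 had 8 genes tested, and 6 were above 0. The log2 fold changes were 0.10 (SE 0.0620) for Tyk2 and 0.08 (SE 0.0553) for Ifnar1.

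Class II genes, which act in antigen-presenting cells, were above 0 in 7 of 7 tested, with a median of 0.08. H2-Ab1 had the largest value, 1.06 (SE 0.414, adjusted p = 0.279 by edgeR), with the high cKO replicate 4 given above, and H2-DMa was at 0.08 (SE 0.217). Of 12 genes listed for receptors of class I molecules and the cells that carry them, 3 were tested (Klra2, Pirb and Cd160). The summed level of all 12 was 0.124 to 0.739 CPM in the controls and 0.143 to 0.913 CPM in the cKO libraries. Summed lymphoid and NK markers were at 0.296 to 0.830 CPM in the controls and 1.08 to 2.64 CPM in the cKO libraries, without overlap; Ptprc, a gene of all leukocytes, was one of only 2 tested, and Cd3e and Gzma had 0 counts in all 8 libraries. Summed liver and yolk sac markers were at 17.7 to 26.2 CPM in the cKO libraries and 19.3 to 54.1 CPM in the controls, and summed erythroid markers at 1355 to 4770 and 1488 to 4616 CPM, with overlap in both lists. The largest part of the liver and yolk sac sum was Trf, with a mean of 14.1 CPM and a log2 fold change of 0.19. Of the 11 liver and yolk sac markers tested 2 were above 0, and the median was -0.95. By edgeR 6 of these 11 had an unadjusted p under 0.05, against 12.8% of all genes tested, and 0 passed (lowest adjusted p = 0.0820). The other marker lists, epicardial, mesenchymal, and decidual and trophoblast, had median log2 fold changes of -0.18, 0.11 and -0.20. Of the last list Hand1 fell (log2 fold change -0.47, adjusted p = 0.0112 by edgeR). Its mean was 83.4 CPM, with Krt8 and Dcn at 51.2 and 26.9 CPM, whereas Prl8a2, Prl3d1 and Ctsj were at 0.119, 0.0414 and 0.112 CPM. Which cells gave the Hand1 counts was not tested, so its fall is not a measure of decidual or trophoblast tissue.

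**Figure D4:**
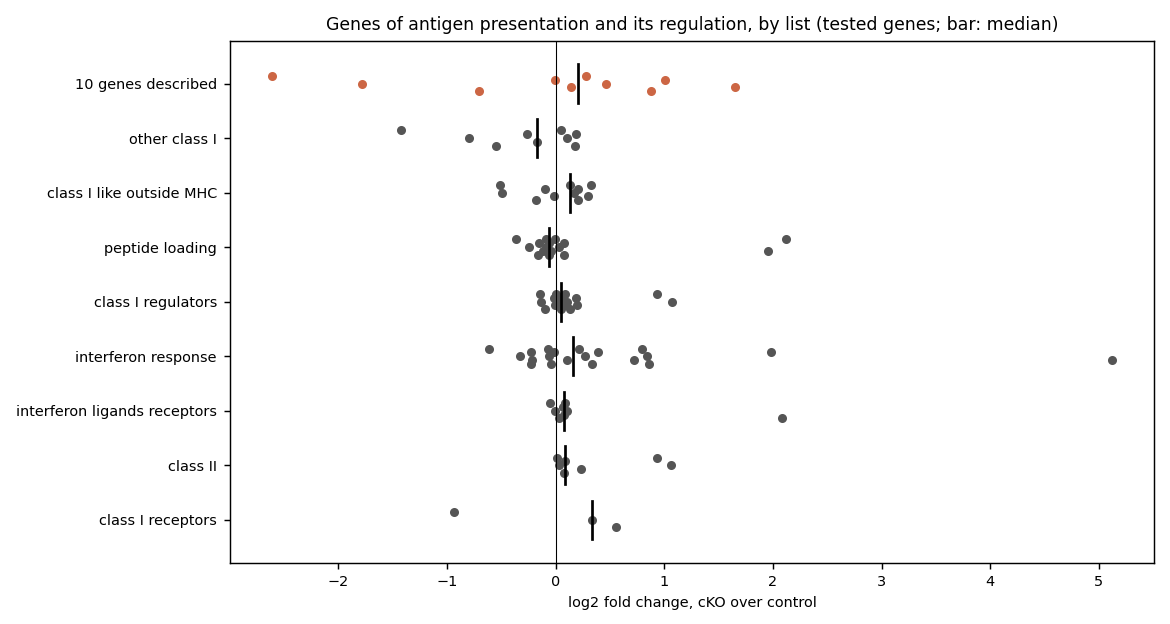
Log2 fold change of cKO over control (horizontal axis) of every tested gene of the class I set and of the lists around it (vertical axis); each point is a gene and the vertical bars are medians. The medians of the lists lie between -0.17 and 0.34, and the points beyond 1.5 outside the class I set belong to genes with means below 0.1 CPM.

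The genes whose level was most like that of H2-Q2 over the 8 libraries were Lmnb1 (Pearson's r of log2 CPM 0.988), Vcam1 (0.979), Ppp2r5a (0.978), Stk39 (0.976) and Poldip2 (0.975), out of 14301 genes with a mean of at least 1 CPM. In all 5 the cKO libraries lay below the controls, as in H2-Q2, and in all 5 control replicate 4 was the highest, so the likeness describes the group difference and that library together. On the same measure H2-Q4 was at 0.909 and H2-Q1 at 0.788, H2-D1 at 0.092 and H2-K1 at -0.23. For B2m the closest were Rasgef1a (0.976), Ctla2a (0.962), Gm49760 (0.955), Slc43a3 (0.952) and Ppp4r1l-ps (0.951), all of which, like B2m, were highest in cKO replicate 1. H2-Q2 and B2m themselves stood at -0.68 to each other.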

How the data were processed

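Poly(A) RNA of ventricles was sequenced as paired reads (150 bp per the labels, 100 bp per the series text) in 4 cKO and 4 control samples; each is called a biological replicate, and litters are not given. Per the labels, the authors used Trim Galore 0.6.7, HISAT2 2.2.1, StringTie 2.2.1 and featureCounts with GRCm39. They deposited raw counts per gene symbol and TPM per gene. The positions deposited with the TPM overlapped RefSeq GRCm38.p6 for 99.9% of 1079 genes of chromosome 17 and GRCm39 for 2.26% of 1197, and are given as GRCm38. How reads with several matches were placed, and strand, are not given in the sources used here.

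Counts were tested with edgeR 4.0.16 (TMM, total of at least 8 counts, quasi-likelihood F test on condition alone, Benjamini-Hochberg over all 26820 genes, threshold 0.05, with a fold of 1.5 as a second threshold) in R 4.3.3, after a check on simulated counts. The SE given with an edgeR log2 fold change is its absolute value divided by the square root of the F statistic. Alternatives used DESeq2 1.42.0 and limma 3.58.1 on log2(TPM + pseudocount). Identity came from pairwise alignment in biopython 1.88. No column of either table was left unused. The members and lists were chosen with earlier results of these data known. Other genes were named if they passed the test within a list, within the interval from H2-K1 to H2-T23 or within 250 kb of H2-Q2, as the 2 of a list with the lowest p and a mean of at least 1 CPM, or as the 5 most like H2-Q2 or B2m; the text says where a gene was named for its role.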

Additional observations from a re-analysis of the deposited data

Results flagged for a closer look

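In 72 groups of 4 libraries (36 named genes in cKO and control), 6 held a library that stood apart from the others by Dixon's criterion at 95%, which chance meets in about 1 of 20 groups. H2-Q2 was at 12.2 CPM in control replicate 4, against 6.32 to 7.28 CPM in the other controls. Ppp2r5a, one of the genes most like H2-Q2, was at 144 CPM in the same library, against 132 to 133 CPM in the others. H2-Ab1 was at 21.0 CPM in cKO replicate 4, against 3.90 to 5.24 CPM in the other cKO libraries. H2-Q7 was at 0.482 CPM in cKO replicate 4, against 0.238 to 0.270 CPM, which is 27 counts against 12 to 13. H2-Q10 was at 0.106 CPM in control replicate 3 (6 counts), with the other controls at 0. Tyk2 was at 30.2 CPM in control replicate 2, against 28.7 to 28.9 CPM in the other controls.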

How the results depend on the processing

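Genes past the 0.05 threshold numbered 230 by edgeR, 867 by DESeq2, 878 with no filter, 380 with the replicate block, 3, 10 and 1 by limma on log2(TPM + 1), on log2(TPM + 0.1) and on log2(TPM + 1) with no filter, and 67 to 744 when single libraries were left out; with a fold of 1.5 they numbered 98, 230, 366, 168, 2, 6, 1 and 31 to 296. After centring within each group, cKO and control libraries of the same replicate number showed little likeness (correlations of -0.167, -0.018, 0.024 and -0.143 over 14295 genes). Litters are not given, so whether the replicate numbers pair the samples cannot be told. Of the 10 class I genes, the 2 past the threshold became 0, 1 and 0 by limma in that order and 1 to 3 without single libraries; these counts include H2-Q2, on which the set was selected, so only H2-Q1 and H2-Q4 bear on them. H2-Q1 lost its call by limma (adjusted p = 0.148, 0.211 and 0.246) and in 4 of 8 fits without 1 library, and DESeq2 gave it no adjusted p. H2-Q4 gained one by DESeq2 (0.00299), with no filter (0.00872), with the replicate block (0.0206) and without cKO replicate 4 (0.0190).

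The log2 fold change of H2-Q2 was -1.88 to -1.52 and that of Pkn2 -0.86 to -0.80 without single libraries. H2-K1 was at -0.12 without cKO replicate 4 and at up to 0.70 without another library. H2-D1 took the other sign at 0.0033 by DESeq2, 0.0036 with DESeq2 size factors, 0.0081 with filterByExpr, 0.0050 with no filter, 0.034, 0.037 and 0.034 by limma, and -0.045 to 0.055 without single libraries. The log2 ratio of summed H2-Q CPM was -1.20 with H2-Q2 (-1.32 to -1.02 without single libraries) and -0.75 without it (-0.91 to -0.65); over all class I rows of the MHC, H2-K1 and H2-D1 included, these were -0.21 and 0.0065. The 0 pathway genes past the threshold became 3 by DESeq2 (Cd1d1, Irf8, Ulbp1), 4 with no filter (H2-Ab1 added), 1 with the replicate block (Cd1d1) and 0 to 3 without single libraries. The 3 genes of the interval from H2-K1 to H2-T23, H2-Q2 included, became 7 by DESeq2, 7 with no filter, 5 with the replicate block, 0, 1 and 0 by limma and 1 to 5 without single libraries. The causes were not tested. Depth limits H2-Q1, H2-Q3, H2-Q5, H2-Q6, H2-Q7 and H2-Q10, each under 0.5 CPM on average.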
